A study of Mus musculus with 4 samples.

Results

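The genes described here are 7 genes of the MHC class II presentation pathway, chosen by name with earlier results of these data known. They are *H2-Aa*, *H2-Ab1* and *H2-Eb1*, which encode chains of the classical class II molecules, *H2-DMa* and *H2-DMb1*, which encode the chains of the peptide exchange factor H2-DM, *Cd74*, which encodes the invariant chain, and *Ciita*, which encodes the class II transactivator. They are 7 of the 33456 genes listed in the deposited matrices, of which 20024 had at least 1 unique molecular identifier (UMI, a count of 1 captured transcript) in any barcode. All 7 were found in each of the 4 libraries.

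The data were droplet-based single cell RNA sequencing of dissociated dorsal root ganglia (DRG), the ganglia that hold the cell bodies of sensory neurons, and reads were counted at the 3′ ends of transcripts. The control group was naïve L4 DRG and the injury group was L4 DRG 3 days after a crush of the sciatic nerve, with 2 libraries in each group. All mice were C57BL/6 females of 8 to 12 weeks, with no other allele named. The methods name isoflurane anaesthesia and buprenorphine analgesia for surgery, and no sham operation is described. Where controls were unoperated mice, surgery and these drugs cannot be told apart from the crush. The same protocol of enzymatic dissociation and sorting for live cells is given for all samples. The labels name L4 whereas the study's methods name L4 and L5 and the methods allow ganglia of the uninjured side as controls. The study describes biological replicates made of cells pooled from several mice.

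MHC class II molecules carry peptides from the endosomes of professional antigen presenting cells (dendritic cells, macrophages and B cells) to the surface, where CD4+ T cells read them. The invariant chain fills the peptide groove during assembly and directs the molecule to endosomes, cathepsins degrade it, and H2-DM then exchanges the remaining fragment for peptides. Transcription of these genes in such cells depends on CIITA, which is recruited by factors bound to an X box and a Y box in their promoters, and resident macrophages of peripheral ganglia are known to carry class II. C57BL/6 mice lack a functional class II E alpha chain, so that the product of *H2-Eb1* does not reach the surface in this strain.

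Of the 7 genes, 5 lie together in the MHC on chromosome 17. In GRCm38 coordinates these are *H2-DMa* (ENSMUSG00000037649, 34119541 to 34139101, plus strand), *H2-DMb1* (ENSMUSG00000079547, 34153072 to 34160230, plus strand), *H2-Ab1* (ENSMUSG00000073421, 34257689 to 34269419, plus strand), *H2-Aa* (ENSMUSG00000036594, 34282744 to 34287823, minus strand) and *H2-Eb1* (ENSMUSG00000060586, 34305867 to 34316674, plus strand). *Ciita* (ENSMUSG00000022504) lies on chromosome 16, from 10480059 to 10528418 on the plus strand.

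The promoters of *H2-Aa* and *H2-Eb1* are printed because the classical chains varied together across macrophage-like cells (below). The letters of the known X and Y boxes can also be read in them. The products of these genes pair with those of *H2-Ab1* and of the E alpha gene, which is not functional in this strain. Each line gives the 120 bases before the RefSeq transcription start on the gene's own strand, 5′ to 3′, from GRCm38.p6, with a GNAAC match (the letters at the centre of the X box) and an ATTGG match (the reversed CCAAT of the Y box) in capitals. The *H2-Aa* stretch is chr17:34287824-34287943 on the minus strand and the *H2-Eb1* stretch is chr17:34305747-34305866 on the plus strand.
H2-Aa: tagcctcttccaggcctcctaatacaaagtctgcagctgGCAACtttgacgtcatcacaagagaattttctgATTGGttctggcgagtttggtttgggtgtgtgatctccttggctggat
H2-Eb1: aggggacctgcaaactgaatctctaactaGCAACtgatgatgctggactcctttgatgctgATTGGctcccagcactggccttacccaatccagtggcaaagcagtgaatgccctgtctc
In *H2-Aa* the GCAAC began 81 bases and the ATTGG 48 bases before the start, and in *H2-Eb1* they began 91 and 59 bases before it. The pair, GNAAC with ATTGG beginning 15 to 35 bases after it on either strand, was present in the 250 bases upstream of 987 of 32851 RefSeq promoters (3.00%), whereas ATTGG alone on either strand was present in 33.8%. The *H2-DMb1* promoter also held a pair, beginning 94 and 61 bases before the start, and neither of the *H2-DMa* windows did. The RefSeq table used did not list *H2-Ab1*, *Cd74* or *Ciita*. These are matches of letters, not measured binding.

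Cells were assigned to 13 types by marker lists that contain none of the 7 genes. A cell needed at least 3 distinct markers of a type and a lead of 2 over the next list. The matrices held 1294 to 2509 barcodes and 5585909 to 11210875 UMIs per library, 6095 of 6975 barcodes passed the limits on depth and mitochondrial share, and 12.4 to 22.3% of the kept cells of a library received no type. Between libraries, 20 of the 6975 barcodes recurred in more than 1 library. Macrophage-like cells numbered 257 in control 1, 86 in control 2, 490 in injury 1 and 210 in injury 2, and carried on average 8.70 of their own 10 markers against 1.03 of the monocyte list. Dendritic-like cells were few, with 23, 10, 31 and 9 cells in control 1, control 2, injury 1 and injury 2, and carried 4.04 of their 10 markers against 1.05 of the next list.

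Most class II transcripts of the ganglion were in macrophage-like cells. Of all UMIs in kept cells, macrophage-like cells held 68.5% for *H2-Aa* (34323 of 50103), 68.1% for *H2-Ab1* (37871 of 55600), 70.7% for *H2-Eb1* (25377 of 35906) and 71.7% for *Cd74* (117857 of 164439). The H2-DM chains had 67.1% (*H2-DMa*, 3877 of 5775) and 63.3% (*H2-DMb1*, 2751 of 4349) of their UMIs there. *Ciita*, a regulator of low abundance, gave only 114 UMIs in all, of which 58 (50.9%) were in macrophage-like cells. The 73 dendritic-like cells held between 12.4% (*H2-DMa*) and 21.1% (*Ciita*) of the UMIs, and cells without a type between 13.5% and 23.7%. Schwann-like cells held 2.87% of the *H2-DMa* UMIs.

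**Figure D1:**
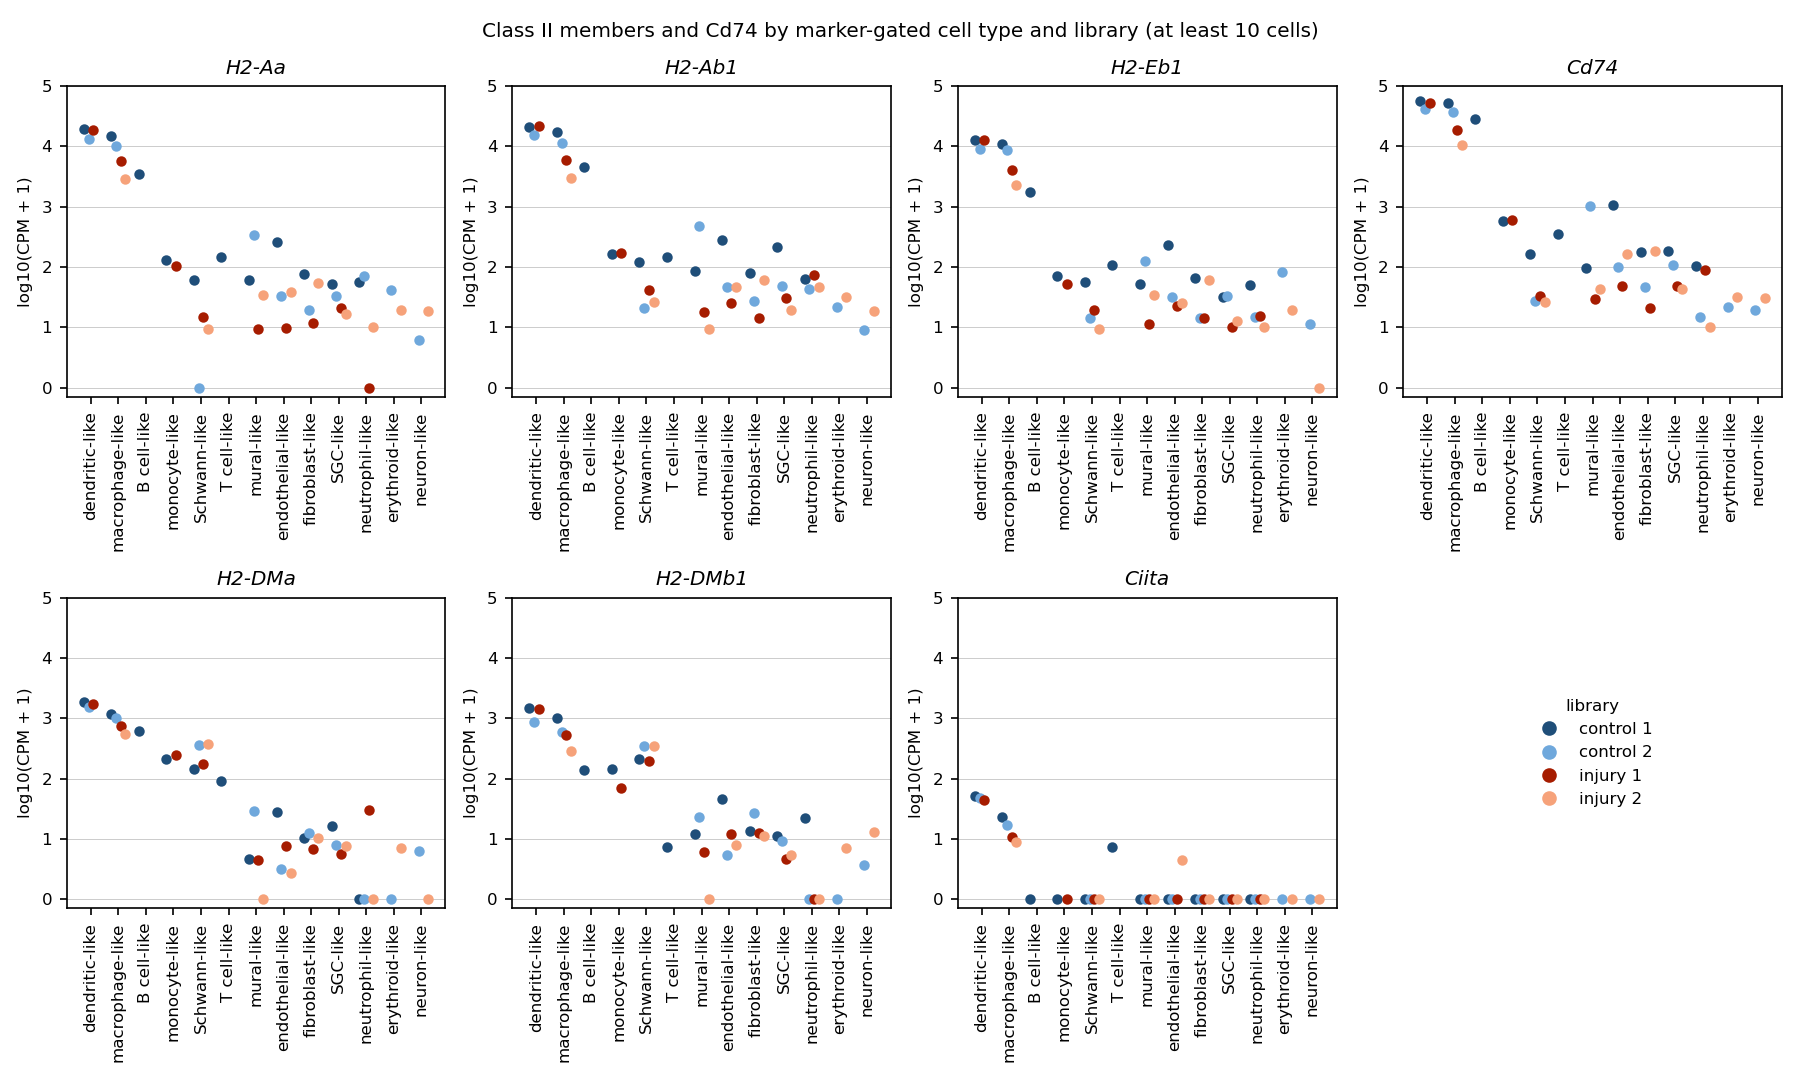
Level of each of the 7 genes, as log10 of CPM + 1 (CPM, the UMIs of a gene per 1000000 UMIs of the summed cells), by cell type on the horizontal axis; each point is 1 library with at least 10 cells of that type. The 3 classical chains and *Cd74* stand highest in dendritic-like cells and in the macrophage-like cells of the controls. The B cell-like point, at 28360 CPM of *Cd74*, lies above both injury macrophage-like points for that gene. For *H2-Aa* and *H2-Ab1* the B cell-like point lies between them, and for *H2-Eb1* under them. The H2-DM chains are also high in Schwann-like cells.

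Against the mean of the satellite glial cell (SGC)-like and fibroblast-like cells, the macrophage-like level was higher for all 7 genes under edgeR's quasi-likelihood test over 8983 genes, at an adjusted p under 0.05 and a change of at least 4-fold. Of all genes tested, 12.4% met that call in the same direction. The log2 difference was 8.27 (SE 0.48) for *H2-Aa*, 7.85 (SE 0.48) for *H2-Ab1* and 8.11 (SE 0.40) for *H2-Eb1*. It was 8.56 (SE 0.60) for *Cd74*, 7.12 (SE 0.29) for *H2-DMa* and 6.25 (SE 0.28) for *H2-DMb1*, beside a median of 0.09 over all genes. *Ciita* had no UMI in SGC-like or fibroblast-like cells, so that its call rests on a reference without UMIs and no fold is given. It passed the filter on low counts only through types in which it was found. Of the 31 other genes of a class II pathway list that could be tested, 13 were called higher in macrophage-like cells and 0 lower.

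After crush, the level in macrophage-like cells was lower for all 7 genes in both injury libraries than in both control libraries, but no gene passed the test. *H2-Aa* stood at 14839 and 10295 CPM in control 1 and control 2 and at 5769 and 2883 CPM in injury 1 and injury 2. *H2-Ab1*, the partner chain of *H2-Aa*, stood at 17542 and 11456 CPM in the controls and at 6027 and 3016 CPM after injury. *H2-Eb1* stood at 10965 and 8706 CPM in the controls and at 4045 and 2322 CPM after injury. For each of these chains control 1 was highest and injury 2 lowest, and the groups did not overlap.

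*Cd74* (ENSMUSG00000024610, GRCm38 chromosome 18, 60803848 to 60812652, plus strand) followed the same order, with 52846 and 37248 CPM in the controls and 18705 and 10382 CPM after injury. The *H2-DMa* levels were 1182 and 1009 CPM in the controls and 744 and 536 CPM after injury. Those of *H2-DMb1* were 1024 and 596 CPM in the controls and 520 and 290 CPM after injury, so that control 2 and injury 1 lay close together. *Ciita* gave 19 and 5 UMIs in the controls (21.7 and 15.8 CPM) and 25 and 9 UMIs after injury (9.78 and 7.77 CPM), and these counts leave a wide counting error. Reads of *H2-DMb1* can be shared with its near-identical neighbour *H2-DMb2*, which makes the level of both uncertain.

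All 7 genes therefore had non-overlapping groups with injury below control, as did 12.8% of 10649 genes with UMIs in these cells. The control mean of *H2-Aa* was 12567 ± 3213 CPM (SD, n = 2) and the injury mean 4326 ± 2041 CPM (SD, n = 2). The fitted log2 change, in edgeR's quasi-likelihood test over 7235 genes, was −1.64 for *H2-Aa* (SE 0.56), −1.79 for *H2-Ab1* (SE 0.58), −1.73 for *H2-Eb1* (SE 0.50) and −1.74 for *Cd74* (SE 0.63), which correspond to levels 3.12-fold to 3.45-fold lower. For the remaining genes it was −0.89 (*H2-DMa*, SE 0.34), −1.12 (*H2-DMb1*, SE 0.47) and −1.24 (*Ciita*, SE 0.47). The edgeR adjusted p was 0.589 to 0.709 for the 7 genes, and 0 of the 7 were called where 0.0138% of all genes were called lower. At an unadjusted p under 0.05, edgeR placed 6 of the 7 lower, as it did 3.99% of all genes tested. The 1 gene called was *Plac8*, a gene of the monocyte list that was singled out after its values were seen, with 183 and 161 CPM in the controls and 9.0 and 9.5 CPM after injury. Since cells of several mice were pooled, p-values measure the spread between these libraries and not between single animals. Leaving out 1 library at a time gave *H2-Aa* changes between −2.36 and −1.15, and DESeq2 gave *H2-Eb1* an adjusted p of 0.033 with a change under 4-fold. How many of all genes reached such a value in DESeq2 is not given here.

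**Figure D2:**
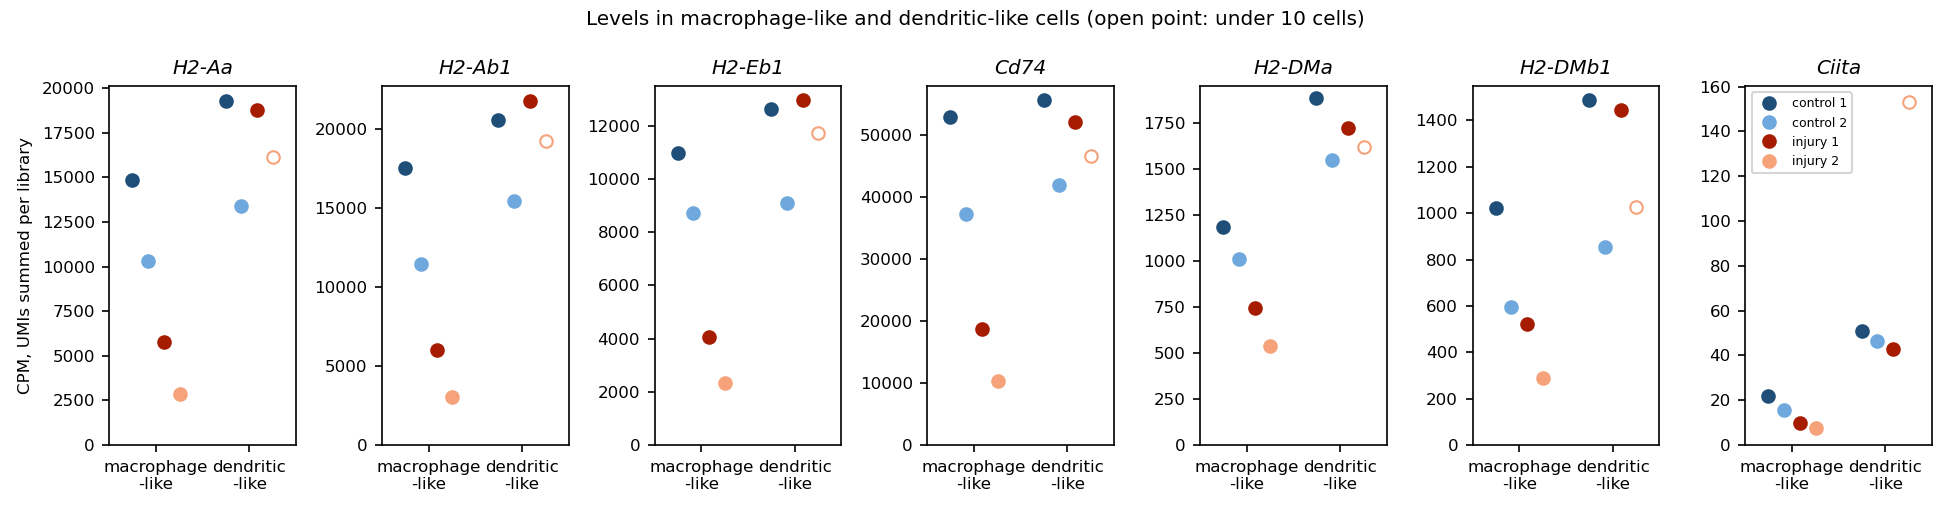
Level in CPM of the 7 genes (1 panel per gene) in macrophage-like and dendritic-like cells of each library; filled points are sums of at least 10 cells and the open point is a sum of fewer. In macrophage-like cells both injury points lie under both control points, for *H2-Aa* 5769 and 2883 CPM under 14839 and 10295 CPM, whereas the dendritic-like points of the 2 groups overlap for the classical chains and *Cd74*.

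The rest of the class II pathway list had values of both signs in these cells. Of the 28 genes of the list that could be tested in macrophage-like cells, 0 were called, and 11 had positive and 17 negative values. At an unadjusted p under 0.05 edgeR placed 8 of the 28, in either direction, as it did 7.05% of all genes. Their median log2 change was −0.05 beside −1.64 over the 7 genes and −0.02 over all genes. The proteases with the highest levels had positive values. *Ctss*, the cathepsin that trims the invariant chain, had a log2 change of 0.12 (SE 0.48), *Ctsb* of 0.24 (SE 0.40) and *Lgmn*, an asparagine endopeptidase, of 0.76 (SE 0.33). *Ctsd*, an aspartic protease of lysosomes, was at 537 ± 117 CPM (SD, n = 2) in the controls and 1615 ± 273 CPM (SD, n = 2) after injury, with a log2 change of 1.46 (SE 0.36) and an edgeR adjusted p of 0.561. Next in level, *Ifngr1*, a chain of the interferon gamma receptor, had a value of −0.50 (SE 0.30), *Irf8*, a transcription factor of the myeloid lineage, of −0.07 (SE 0.34), and *Ifi30*, a reductase that opens disulphide bonds of antigens, of 0.03 (SE 0.32). Genes of the class I pathway, which presents peptides of the cytosol, had negative values in 8 of 8 tested, with a median of −0.55 and 0 called.

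The share of macrophage-like cells with a transcript was also lower after injury for *H2-Aa* and *Cd74*. *H2-Aa* was found in 96.1% and 95.3% of macrophage-like cells in the controls and in 81.8% and 63.8% after injury, and *Cd74* in 98.8% and 97.7% and then in 93.1% and 87.1%. *H2-DMa* was found in 87.2%, 89.5%, 88.6% and 83.8% of cells in the same order. Depth differed in the opposite direction, with a median of 2997 and 3307 UMIs per macrophage-like cell in the controls and 4709.5 and 4965.5 after injury. When each cell was thinned to 1000 UMIs, *H2-DMa* was found in 63.3% and 64.0% of the control cells and in 48.2% and 38.6% of the injury cells, and *H2-DMb1* in 57.4% and 44.2% and then in 35.5% and 22.4%. For *H2-Aa* the thinned shares were 93.8%, 89.5%, 68.2% and 47.1%.

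Class II was spread broadly over the macrophage-like cells of the control libraries and over fewer of those in the injury libraries. The summed UMIs of *H2-Aa*, *H2-Ab1* and *H2-Eb1* per 1000 UMIs had a median over cells of 43 in control 1, 33.5 in control 2, 11 in injury 1 and 1 in injury 2. The share of cells at 0 was 3.52% and 4.65% in the controls and 22.7% and 41.4% after injury. The 90th percentile over cells was 72.5 and 57.5 in the controls and 49 and 38 after injury, and 38.7%, 19.8%, 9.59% and 4.76% of cells had 50 or more. Injury libraries held cells with as much as the median control cell, beside a larger share of cells at 0. The median of *Cd74* per 1000 UMIs was 56 and 38 in the controls and 14.5 and 2 after injury.

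**Figure D3:**
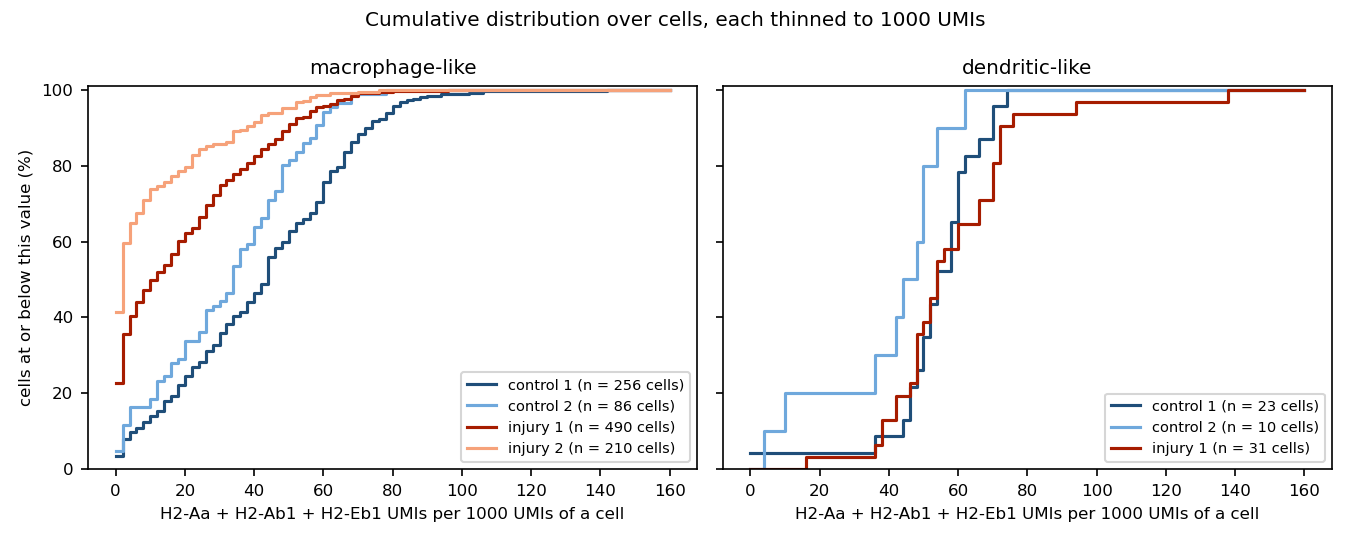
Cumulative percentage of cells (vertical axis) by the summed UMIs of *H2-Aa*, *H2-Ab1* and *H2-Eb1* per 1000 UMIs (horizontal axis), 1 line per library, in 256, 86, 490 and 210 macrophage-like cells and in 23, 10 and 31 dendritic-like cells. Lines of the injury macrophages start at 22.7% and 41.4% of cells at 0, against 3.52% and 4.65% in the controls. The dendritic-like lines have medians of 46 to 54. Among them the control line of 10 cells lies mostly at lower values. Its 10th percentile is 9.3, against 43.4 in the control line of 23 cells and 38 in the injury line of 31 cells. Only 1 injury line is drawn for dendritic-like cells.

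The transcripts of the classical chains and *Cd74* went together from cell to cell. Over 1042 thinned macrophage-like cells, Spearman correlations within libraries averaged 0.823 to 0.851 for pairs among *H2-Aa*, *H2-Ab1*, *H2-Eb1* and *Cd74*. H2-DM chains correlated with those genes at 0.373 to 0.457, and *H2-DMa* with *H2-DMb1* at 0.239. The H2-DM chains were absent from many thinned cells, which limits such correlations, so no weaker link of H2-DM is read from them. For *Ciita* the values were 0.039 to 0.111, and its UMIs are too sparse to read anything from them. All points of a library share its depth and preparation. The genes most like the summed classical chains over macrophage-like cells were *Ccr2* (0.337), *Psap* (0.297), *Ctss* (0.282) and *Cd52* (0.272) among 570 genes, which is weak, and the lowest were *Pf4* (−0.364) and *Fcrls* (−0.337).

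The make-up of the macrophage-like cells differed between the groups beside these levels. Cycling cells, with at least 2 of *Mki67*, *Top2a*, *Cdk1*, *Ccnb2* and *Birc5*, made up 0.389% and 4.65% of macrophage-like cells in the controls and 12.9% and 22.4% after injury. Cells with *Mrc1* or *Cd163*, markers of resident macrophages, made up 70.0% and 52.3% in the controls and 54.7% and 63.8% after injury. The summed monocyte markers stood at 1005 and 845 CPM in the controls and 630 and 754 CPM after injury, and the dendritic markers at 143 and 104 CPM and then at 86.5 and 110 CPM, with at most 4 UMIs each of *Xcr1*, *Clec9a* and *Ccr7*, which mark cross-presenting and migratory dendritic cells. SGC markers stood at 44.6, 889, 164 and 369 CPM, and the median mitochondrial share at 1.40%, 2.39%, 2.1% and 3.15%, in control 1, control 2, injury 1 and injury 2. Of the monocyte markers, *Ly6c2* was at 117, 41.0, 1.96 and 4.32 CPM, and *Ccr2* at 405, 404, 327 and 276 CPM, in the same order. *F13a1*, of the same list, did not follow them, at 295, 208, 287 and 462 CPM, highest in injury 2. The part of each of these in the lower class II level was not tested, and arrival of other cells and a change within resident cells cannot be told apart.

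Class II differed between macrophage subsets within the same libraries. In cells with neither *Mrc1* nor *Cd163*, *H2-Aa* stood at 16911, 11303, 9420 and 7659 CPM in control 1, control 2, injury 1 and injury 2. In cells with *Mrc1* or *Cd163* it stood at 13769, 9164, 4972 and 2378 CPM. The *Mrc1* or *Cd163* cells were lower in 4 of 4 libraries, and in injury 2 the distance was widest. *Cd74* stood at 59930, 40562, 30403 and 28473 CPM in the cells with neither and at 49288, 33986, 15900 and 8597 CPM in the others. In a test of 5541 genes with library as a block, 6 of 6 testable genes of the 7 were lower in the *Mrc1* or *Cd163* cells by edgeR adjusted p alone, as were 3.63% of all genes, and 0 reached 4-fold, as did 0.307%. Without the library block 0 of the 6 passed. The log2 differences were −0.86 (SE 0.15, edgeR adjusted p = 0.000235) for *H2-Aa*, −0.88 (SE 0.15, edgeR adjusted p = 0.000181) for *H2-Ab1*, −0.96 (SE 0.15, edgeR adjusted p = 5.62e-05) for *H2-Eb1* and −0.87 (SE 0.15, edgeR adjusted p = 0.00023) for *Cd74*. Those of the H2-DM chains were smaller, at −0.46 (SE 0.12, edgeR adjusted p = 0.0195) for *H2-DMa* and −0.59 (SE 0.13, edgeR adjusted p = 0.00316) for *H2-DMb1*. Of the pathway list, the proteases *Ctsl* (0.80), *Ctsb* (0.74) and *Lgmn* (0.53) were higher on the log2 scale in the *Mrc1* or *Cd163* cells by edgeR adjusted p, and *Cd44* (−1.63), *Ifi30* (−0.86) and *Ctss* (−0.49) lower.

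In both injury libraries cycling cells had the lowest CPM of the macrophage subsets for each gene but *Ciita*, which had few UMIs. The 63 and 47 cycling cells of injury 1 and injury 2 stood at 2712 and 1931 CPM of *H2-Aa* and at 9599 and 6481 CPM of *Cd74*. Control 1 and control 2 held 1 and 4 such cells, too few for the test. These few cells were not low, at 10501 and 11826 CPM of *H2-Aa* and 28404 and 38293 CPM of *Cd74*. The low level of cycling cells was thus seen in injury libraries only. The test compared cycling cells with the equal-weight mean of the other subsets on the log scale, not with the other macrophage-like cells pooled. Against that mean, 6 of 6 testable genes were lower by edgeR adjusted p alone, as were 2.76% of all genes, and 0 by 4-fold, as were 0.126%. Without the library block 0 of the 6 passed here too. The log2 differences were −1.38 for *H2-Aa* (SE 0.19, edgeR adjusted p = 5.7e-06), −1.45 for *H2-Eb1* (SE 0.19, edgeR adjusted p = 2.77e-06) and −1.37 for *Cd74* (SE 0.19, edgeR adjusted p = 5.3e-06). They were −0.81 (SE 0.16) for *H2-DMa* and −0.75 (SE 0.17) for *H2-DMb1*. CPM is a share of all UMIs, and cycling cells carried more UMIs per cell. In injury 1 the 63 cycling cells held 498814 UMIs, 1353 of *H2-Aa*, and the 268 *Mrc1* or *Cd163* cells 1345625, 6691 of *H2-Aa*. In injury 2 the 47 cycling cells held 305038, 589 of *H2-Aa*, and the 134 *Mrc1* or *Cd163* cells 716161, 1703 of *H2-Aa*. Per cell, *H2-Aa* UMIs thus differed less than CPM, and the part of depth was not tested. The injury libraries were also the lower ones among cells with neither *Mrc1* nor *Cd163*, at 9420 and 7659 CPM of *H2-Aa* against 16911 and 11303 CPM. There 5 of the 7 genes had both injury libraries below both controls, as did 13.7% of 7267 genes, and the groups overlapped for *H2-DMb1* and *Ciita*.

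**Figure D4:**
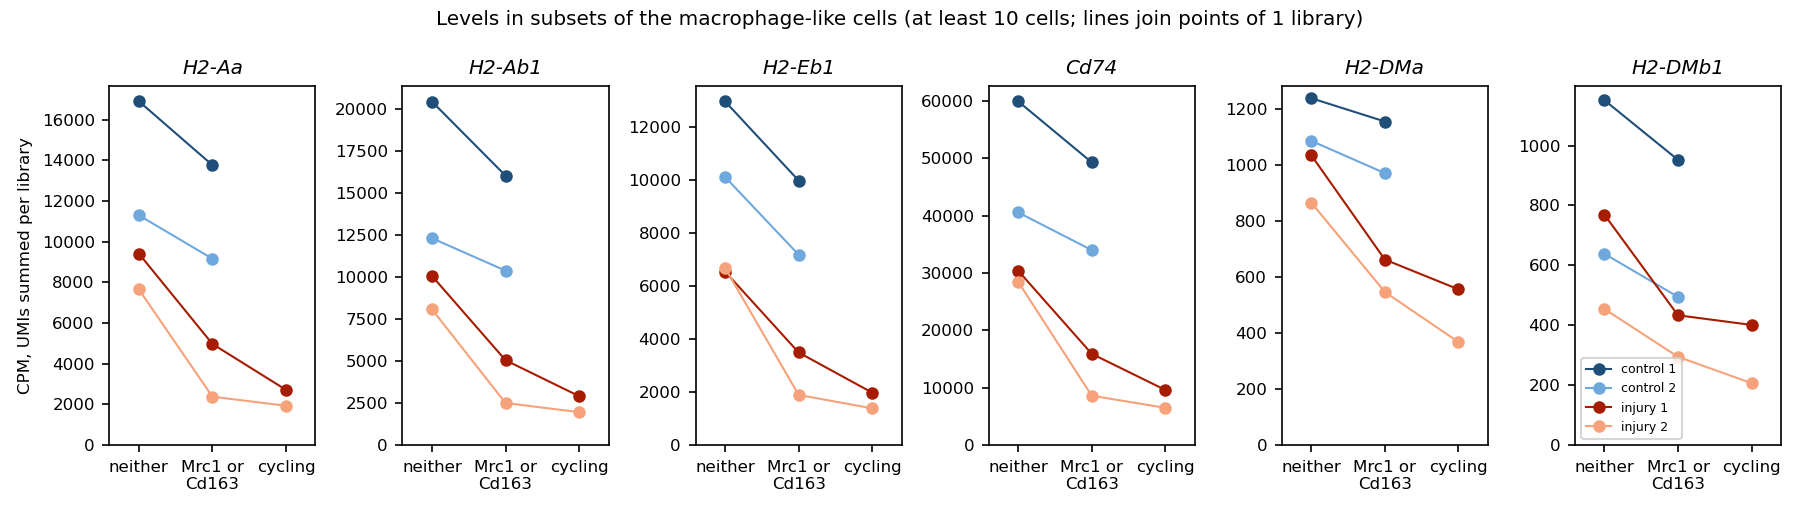
Level in CPM of *H2-Aa*, *H2-Ab1*, *H2-Eb1*, *Cd74*, *H2-DMa* and *H2-DMb1* (1 panel per gene) in macrophage-like cells with neither *Mrc1* nor *Cd163*, with either of them, and in cycling cells, 1 point per library with at least 10 cells. For *H2-Aa* the order within each injury library is neither (9420 and 7659 CPM), *Mrc1* or *Cd163* (4972 and 2378 CPM) and cycling (2712 and 1931 CPM).

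Dendritic-like cells carried all 7 genes at levels that did not pass the test against macrophage-like cells. *H2-Aa* stood at 19304, 13384 and 18766 CPM in control 1, control 2 and injury 1, and at 16127 CPM in the 9 cells of injury 2. *Cd74* stood at 55571, 41864 and 52015 CPM, and at 46524 CPM in the 9 cells. Unlike in macrophage-like cells, the injury values lay within or above the range of the controls. The log2 difference from macrophage-like cells was 0.92 (SE 0.51, edgeR adjusted p = 0.258) for *H2-Aa*, 0.70 (SE 0.64, edgeR adjusted p = 0.540) for *Cd74*, 0.79 (SE 0.30, edgeR adjusted p = 0.0769) for *H2-DMb1* and 1.47 (SE 0.64, edgeR adjusted p = 0.143) for *Ciita*. None of the 7 was called where 2.01% of 8983 genes were called higher, and all 7 values were positive beside a median of −0.56 over all genes. With a gate that asked for a lead of only 1 marker, which was chosen after the data were seen, *Ciita* was called at 2.17 (edgeR adjusted p = 0.0034).

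Other genes of peptide loading did pass the test between dendritic-like and macrophage-like cells. Of 31 testable genes of the pathway list, 4 were called higher in dendritic-like cells, as were 2.01% of all genes, and 5 lower. The share of all genes called lower is not given here, and the median over all genes was −0.56, so the lower calls are not read as particular to the list. The called genes included the chains of H2-DO, the inhibitor of H2-DM, with *H2-Oa* at 389 ± 107 CPM (SD, n = 3) in dendritic-like cells and 13.7 ± 12.4 CPM (SD, n = 4) in macrophage-like cells. *H2-Ob* stood at 138 ± 25.3 CPM (SD, n = 3) and 8.83 ± 2.08 CPM (SD, n = 4). *H2-DMb2*, the neighbouring H2-DM beta gene, stood at 342 ± 110 CPM (SD, n = 3) and 19.3 ± 7.2 CPM (SD, n = 4). The log2 differences were 4.69 (SE 0.43, edgeR adjusted p = 1.2e-10) for *H2-Oa*, 3.75 (SE 0.48, edgeR adjusted p = 4.75e-07) for *H2-Ob* and 3.99 (SE 0.42, edgeR adjusted p = 1.94e-09) for *H2-DMb2*. Proteases were called lower, among them *Lgmn* (−4.60, SE 0.29), *Ctsb* (−3.41, SE 0.24) and *Ctsd* (−5.62).

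The lower values after injury in macrophage-like cells had no counterpart in dendritic-like cells, and the difference of the 2 changes was tested in a fit added after the data were seen. To have at least 10 dendritic-like cells in all 4 libraries, that fit used the gate with a lead of 1 marker, which gave 32, 12, 46 and 19 dendritic-like cells. *H2-Aa* then stood at 18776 and 13339 CPM in the dendritic-like cells of the controls and at 18081 and 13885 CPM after injury, and the groups overlapped. Within dendritic-like cells the log2 change after injury was −0.04 (SE 0.21) for *H2-Aa*, −0.02 (SE 0.19) for *H2-Ab1*, −0.02 (SE 0.19) for *H2-Eb1* and −0.15 (SE 0.16) for *Cd74*, and 0 of 1936 genes were called (0.0%). With library as a block, the dendritic-like minus the macrophage-like change was 1.76 (SE 0.25, edgeR adjusted p = 0.000106) for *H2-Aa*, 1.91 (SE 0.25, edgeR adjusted p = 5.97e-05) for *H2-Ab1*, 1.85 (SE 0.25, edgeR adjusted p = 5.97e-05) for *H2-Eb1* and 1.72 (SE 0.24, edgeR adjusted p = 0.000106) for *Cd74*. It was 1.28 (SE 0.29, edgeR adjusted p = 0.0339) for *H2-DMb1*, 0.95 (SE 0.28, edgeR adjusted p = 0.166) for *H2-DMa* and 1.61 (SE 0.93, edgeR adjusted p = 0.775) for *Ciita*. By adjusted p alone 5 of the 7 were called, as were 0.432% of all 4168 genes. The calls rested on the full set of libraries. Without control 1 or without control 2, and likewise without the library block, 0 of the 7 were called, while the difference for *H2-Aa* stayed between 1.42 and 2.06 whichever library was left out. Of the pathway list *H2-Oa* alone of 24 genes was called, with a difference of 3.18 (SE 0.56, edgeR adjusted p = 0.00269).

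B cell-like cells, a further class of antigen presenting cells, were numerous enough in control 1 only, with 22 cells. There *H2-Aa* stood at 3425 CPM, *H2-Ab1* at 4603 CPM, *H2-Eb1* at 1754 CPM and *Cd74* at 28360 CPM. *H2-DMa* stood at 603 CPM and *H2-DMb1*, with 5 UMIs, at 137 CPM, and *Ciita* had no UMI. With 1 library of B cell-like cells there was no replicate of them, and the fit assumes that this library varies like the sums of the other types. On that assumption edgeR called 3 of the 7 lower than in macrophage-like cells, where 4.36% of all genes were, and DESeq2 called 0, so that no difference is drawn. Of the pathway list, *H2-DMb2* stood at 1041 CPM, *H2-Ob* at 466 CPM and *H2-Oa* at 384 CPM in these cells, beside the macrophage-like means of 19.3, 8.83 and 13.7 CPM.

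Monocyte-like cells carried little classical class II, and their H2-DM levels lay nearer to those of macrophage-like cells. In control 1 and injury 1, the libraries with at least 10 such cells, *H2-Aa* stood at 130 and 103 CPM, *H2-Ab1* at 166 and 172 CPM and *Cd74* at 568 and 601 CPM. *H2-DMa* stood at 213 and 240 CPM and *H2-DMb1* at 142 and 68.7 CPM. Against macrophage-like cells 6 of the 7 were called lower, where 4.88% of all genes were. The log2 difference was −7.58 (SE 0.85, edgeR adjusted p = 7.65e-09) for *H2-Eb1* and −6.15 (SE 1.05, edgeR adjusted p = 4.21e-05) for *Cd74*. It was smaller for *H2-DMa*, at −2.59 (SE 0.47, edgeR adjusted p = 0.000112), and for *H2-DMb1*, at −3.27 (SE 0.54, edgeR adjusted p = 2.54e-05). *Ciita* had no UMI in these 2 libraries and 1 UMI in all 49 monocyte-like cells.

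In SGC-like and fibroblast-like cells, the reference types used above, class II UMIs were present at a low level. *H2-Aa* ranged from 15.4 to 51.8 CPM over the libraries in SGC-like cells and from 11 to 75.6 CPM in fibroblast-like cells, and *Cd74* from 42.4 to 181 CPM and from 19.7 to 185 CPM. At least 1 *H2-Aa* UMI occurred in 6.38% of the 1285 SGC-like and in 9.78% of the 1114 fibroblast-like cells, at median depths of 4090 and 4113.5 UMIs. The UMIs were spread unevenly over cells. In SGC-like cells 82.7% had none of the 470 classical UMIs and the top 5 cells held 41.1% of them, and in fibroblast-like cells 74.2% had none and the top 5 held 29.9%. Whether levels at this height are background or expression was not tested.

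In SGC-like cells the low class II levels were also lower in the injury libraries, and no gene passed the test. There 6 of 6 testable genes of the 7 had both injury libraries below both controls, as did 15.2% of all genes, with log2 changes of −1.02 (SE 0.35) for *H2-Aa* and −1.50 (SE 0.28) for *Cd74*, and none was called (0.0% of all genes). Their source was not tested. In fibroblast-like cells 2 of 6 did, as did 18.8% of all genes, with log2 changes of −0.04 (*H2-Eb1*) to −0.70. In endothelial-like cells 2 of 6 did, as did 19.4%, and *Cd74* stood at 1048 CPM in control 1. The 4 genes tested there had log2 changes of −2.30 (*H2-Aa*, SE 0.91), −1.93 (*H2-Ab1*, SE 0.73), −2.17 (*H2-Eb1*, SE 0.82) and −2.30 (*Cd74*, SE 0.88). None of the 4 was called. All edgeR adjusted p rounded to 0.999 or more in SGC-like and endothelial-like cells. The number of calls over SGC-like, fibroblast-like and endothelial-like cells depended on the library left out. Such fits keep only 1 library in a group, so no call is read from them.

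Schwann-like cells, the myelinating glia of the nerve, differed from SGC-like cells in H2-DM. *H2-DMa* stood at 142 and 360 CPM in the controls and at 170 and 370 CPM after injury (31, 54, 37 and 44 UMIs). *H2-DMb1* stood at 211 and 347 CPM in the controls and at 198 and 345 CPM after injury (46, 52, 43 and 41 UMIs). Replicates 2 were higher than replicates 1 in both groups, with 33 and 21 cells at a median depth of 4271 and 5012 UMIs against 104 and 96 cells at 1745.5 and 1904 UMIs, and the groups overlapped.

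The chains that H2-DM serves were not seen at a like level. *H2-Aa* stood at 59.7 CPM in control 1, 0 CPM in control 2, 13.8 CPM in injury 1 and 8.40 CPM in injury 2. *Cd74* stood at 165, 26.7, 32.2 and 25.2 CPM in the same order. *Ciita* had no UMI in 254 Schwann-like cells, which allows a share of cells with a UMI of up to 1.18%, and *H2-DMb2*, *H2-Oa* and *H2-Ob* had 1 UMI each. H2-DM transcripts were spread over many cells, since 31.1% of Schwann-like cells had *H2-DMa*, against 2.26% of the SGC-like and 3.41% of the fibroblast-like. After thinning to 1000 UMIs these shares were 14.3%, 0.70% and 0.987%. *H2-DMb1* was found in 31.5% of Schwann-like cells (15.5% thinned), against 2.18% (0.467% thinned) and 5.66% (1.53% thinned).

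The contrast of Schwann-like cells with the mean of SGC-like and fibroblast-like cells was added after these levels were seen. *H2-DMa* was 30.3-fold higher (log2 4.92, SE 0.34, edgeR adjusted p = 1.65e-15) and *H2-DMb1* 26.5-fold higher (log2 4.73, SE 0.34, edgeR adjusted p = 5.26e-15), where 4.11% of all genes were called higher. *H2-Aa* (−0.75, SE 0.81), *H2-Ab1* (−0.03, SE 0.67), *H2-Eb1* (−0.34, SE 0.68) and *Cd74* (−0.78, SE 0.74) were not called, beside a median of −0.20 over all genes. With the gate lead of 1 marker these values were 1.39, 1.40, 1.53 and 1.21, and with thinned cells the values of the classical chains were 0.49, 0.37 and 0.10, so that no direction is given for them. Both H2-DM chains were called in every alternative run, with log2 differences of 3.93 to 5.23 and 3.87 to 4.95. Of the pathway list 0 of 31 genes were called higher and 1 lower, and of the class I list 2 of 8 lower. The share of all genes called lower is not given here, so the lower calls are not read further. After injury the H2-DM chains in Schwann-like cells had log2 changes of 0.06 (*H2-DMa*, SE 0.57) and −0.08 (*H2-DMb1*, SE 0.42), with 0.0% of genes called.

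The same contrast shows as the share of H2-DM in the UMIs of *H2-DMa*, *H2-DMb1* and the 3 classical chains. That share was 81.9% in Schwann-like cells (exact Clopper-Pearson 95% interval 77.9 to 85.4%, for counting error only, as are all intervals here) and 6.36% in macrophage-like cells (6.21 to 6.51%). Within Schwann-like cells it was 60.2% in control 1, 95.5% in control 2, 83.3% in injury 1 and 94.4% in injury 2. Macrophage-like cells had 4.84% and 5.01% in the controls and 7.39% and 9.14% after injury, so that both injury libraries lay above both controls. Dendritic-like cells had 6.04%, 5.96%, 5.59% and 5.32%, and SGC-like cells 12.6% (9.95 to 15.7%). Fibroblast-like cells had 9.09%, 39.0%, 32.0% and 10.2% in control 1, control 2, injury 1 and injury 2. The 49 monocyte-like cells had 51.7% (42.4 to 60.9%, 62 UMIs of H2-DM and 58 of the classical chains), and ranged from 48.6 to 66.7% over the libraries. Of these, control 2 and injury 2 held only 4 and 9 such cells. A share within 1 cell type compares transcripts whose capture may differ between genes, and is read here only between types and libraries.

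**Figure D5:**
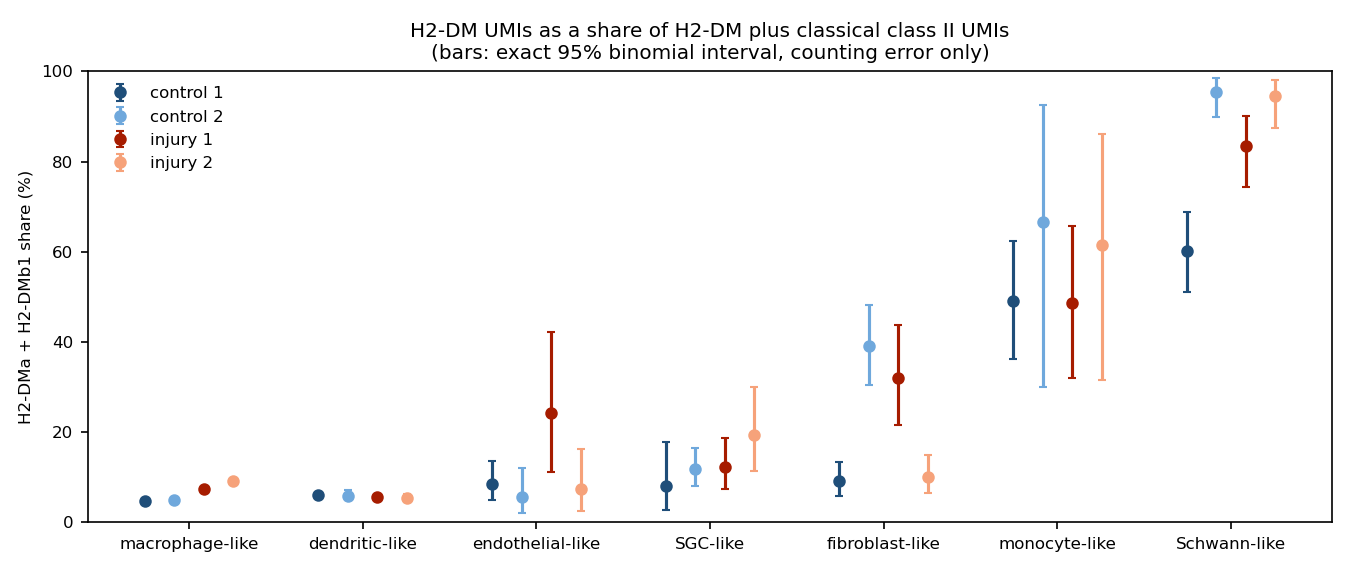
Share of H2-DM (*H2-DMa* and *H2-DMb1*) in the UMIs of H2-DM and the classical chains (*H2-Aa*, *H2-Ab1*, *H2-Eb1*), in percent, by cell type and library; bars are exact 95% binomial intervals of the counts. Schwann-like cells lie at 60.2 to 95.5%, monocyte-like cells at 48.6 to 66.7%, fibroblast-like cells at 9.09 to 39.0%, and macrophage-like and dendritic-like cells under 10%. All libraries are drawn, also the monocyte-like points of control 2 and injury 2, with 4 and 9 cells.

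Within macrophage-like and within dendritic-like cells, ratios among the other genes differed little between libraries. *H2-Ab1* made up 54.2%, 52.7%, 51.1% and 51.1% of the UMIs of the A chains (*H2-Aa* plus *H2-Ab1*) in the macrophage-like cells of control 1, control 2, injury 1 and injury 2, and 51.6%, 53.6%, 53.7% and 54.4% in dendritic-like cells. *Cd74* gave 1.22, 1.22, 1.18 and 1.26 UMIs per classical UMI in macrophage-like cells, and 1.06, 1.10, 0.972 and 0.988 in dendritic-like cells. The ratio was 2.90 in the B cell-like cells of control 1, 1.81 in all monocyte-like, 0.881 in all SGC-like and 0.649 in all Schwann-like cells. Over the libraries it ranged from 1.20 to 5.33 in monocyte-like, 0.614 to 0.969 in SGC-like and 0.438 to 0.80 in Schwann-like cells. These ranges rest on few UMIs, and no difference between those types is drawn. Within macrophage-like cells the invariant chain and the classical chains thus kept their ratio while the fitted level differed by over 3-fold between the groups. In SGC-like cells the *H2-Ab1* share was 80.4% in control 1 (66.9 to 90.2%, 41 UMIs against 10 of *H2-Aa*) and 59.7%, 60.2% and 54.3% in the others.

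Over 39 sums of cell type and library (13 types, log2 of CPM + 1), the mean of the classical chains was closest to its own members and *Cd74* (Pearson's r of 0.974 to 0.982). *Ciita* followed at 0.855, and *H2-DMa* and *H2-DMb1* were lower, at 0.743 and 0.726. Among 11297 genes outside the 7, the most alike were *Clec10a* (0.917), *Scimp* (0.915), *Cd180* (0.913), *Il21r* (0.875), *Slamf7* (0.875), *Cd83* (0.874), *Fgd2* (0.868) and *Itgax* (0.865). These sums share libraries, and the values describe a pattern over types only.

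In the sum of all kept cells, which mixes the share of a cell type with its level, so that fewer cells and less RNA per cell cannot be told apart, the groups overlapped. *H2-Aa* stood at 4395 and 805 CPM in the controls and at 2275 and 941 CPM after injury, and *Cd74* at 14895 and 2788 CPM and then at 7115 and 3138 CPM. Control 1 was highest and control 2 lowest. Macrophage-like cells were 19.8%, 6.41%, 20.6% and 19.5% of kept cells in control 1, control 2, injury 1 and injury 2, and the part of these shares in the levels was not tested. None of the 7 had groups without overlap, where 17.6% of genes had injury below control, and none was called (0.0%, edgeR, with 181 genes at an unadjusted p under 0.05). The fitted log2 changes ranged from −0.09 to −0.73, with standard errors of 0.76 to 0.98, and turned positive without control 1.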

How the data were processed

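Cell Ranger UMI counts per gene and barcode, aligned to mm10, were deposited per library before the authors' cell filter and CPM scaling in Partek; the unnumbered library of each group is called replicate 1. The 7 genes and all lists were chosen with earlier results of these data known. Cells with 600 to 15000 UMIs, 500 to 4000 genes and under 10% mitochondrial UMIs were kept, which left 4293865 to 9139674 UMIs per library, and gated on marker genes (3 distinct markers, lead of 2). No doublet caller was run. Cells with fewer than 3 markers of any type, or without a lead of 2, stayed without a type. A typed cell could still hold markers of other types.

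UMIs were summed per library and type (at least 10 cells), since cells are not replicates, and tested with edgeR 4.0.16 (R 4.3.3; TMM, filterByExpr, quasi-likelihood, Benjamini-Hochberg over all genes tested), with a call at adjusted p under 0.05 and at least 4-fold. Type contrasts used 1 fit over 39 sums with library as a block. The fit was tested on simulated data. CPM values are UMIs per 1000000, without TMM. Thinning drew 1000 UMIs per cell and left out shallower cells. Alternatives were DESeq2 1.42.0, no filter on genes or cells, another gate, thinned cells, no or another block, and leaving out each library. All 7 genes were named throughout. Of the pathway list (37 genes, 35 found), the called genes with the largest changes or else those with the highest levels were named. Outside these, genes are named as chosen after their values were seen. Promoters came from RefSeq (GRCm38.p6) and gene positions from the GRCm38 annotation. *H2-Ea* and *Ighd* were not analysed here.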

Additional observations from a re-analysis of the deposited data

Results flagged for a closer look

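The change after injury differed between dendritic-like and macrophage-like cells for 5 of the 7 genes, by edgeR's quasi-likelihood test of the difference itself with adjustment over 4168 genes. On the log2 scale, dendritic-like minus macrophage-like, the difference was 1.757 for *H2-Aa*, 1.912 for *H2-Ab1*, 1.849 for *H2-Eb1*, 1.720 for *Cd74* and 1.278 for *H2-DMb1*, with macrophage-like levels lower after injury and dendritic-like levels overlapping between the groups. The test was added after the data were seen and rested on 12 and 19 dendritic-like cells in the libraries with the fewest. Leaving out either control library left 0 of these calls (edgeR adjusted p of 0.616 for *H2-Aa* without control 1 and 0.122 without control 2), while the difference for *H2-Aa* was 1.79 and 1.69 in those fits. Why it differed was not tested.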

How the results depend on the processing

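Of 645 alternative log2 values of single genes, 593 kept their direction and their side of the threshold and 20 changed sign, and 14 of 144 alternative counts of called genes moved by over 1.5 times. In macrophage-like cells 0 of the 7 genes were called after injury by adjusted p and 4-fold together under any alternative run, and all 7 values stayed negative. The sum of all cells depended on 1 library, with ranges over the leave-one-out fits of −1.48 to 1.19 (*H2-Aa*), −1.55 to 1.12 (*H2-Ab1*), −1.38 to 0.99 (*H2-Eb1*), −1.51 to 1.07 (*Cd74*), −0.77 to 1.33 (*H2-DMa*), −1.09 to 1.31 (*H2-DMb1*) and −1.19 to 1.67 (*Ciita*), the positive ends coming without control 1. The replicate numbers of the labels share only the number 2 and nothing ties equal numbers to an animal or day, so no pairing is assumed; with the replicate number as a block, *H2-DMa* became 0.19 and *Ciita* 0.018 in that sum, 0 of the 7 genes were called in any type, and *H2-Eb1* in macrophage-like cells was −1.80.

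In SGC-like, fibroblast-like and endothelial-like cells together, 0 calls became 3 with no filter on low counts. The share of all genes called in that fit is not given here, so these calls are not read further. The number also depended on the library left out, in fits that keep only 1 library in a group. Against macrophage-like cells, the gate lead of 1 gave 1 call in dendritic-like cells, and in B cell-like cells, with 1 library, 3 calls became 0 with DESeq2, 1 without the library block, 1 with the gate lead of 1 and 2 to 4 on leaving out a library. For the *Mrc1* or *Cd163* and the cycling cells, 0 calls became 6 and 6 by adjusted p alone, of which 0 and 0 were left without the library block, and 4 to 6 and 5 to 6 on leaving out a library. The difference of injury changes between dendritic-like and macrophage-like cells gave 5 calls, 0 without the library block and 0 to 4 on leaving out a library. In Schwann-like cells the uncalled genes changed sign. With the gate lead of 1 they were 1.39 (*H2-Aa*), 1.40 (*H2-Ab1*), 1.53 (*H2-Eb1*) and 1.21 (*Cd74*), with thinned cells 0.49 (*H2-Aa*), 0.37 (*H2-Ab1*) and 0.10 (*H2-Eb1*), and *H2-Ab1* was 0.032 without the library block and between −0.42 and 0.12 on leaving out a library. The causes were not tested. Few dendritic-like, B cell-like and monocyte-like cells, and 114 UMIs of *Ciita*, limit what could be detected.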

Other observations

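Cells without a type also held class II transcripts. At least 20 UMIs of the classical chains (*H2-Aa*, *H2-Ab1* and *H2-Eb1*) were found in 28 of 216 such cells in control 1, 19 of 176 in control 2, 37 of 530 in injury 1 and 19 of 133 in injury 2. Of these, 23, 16, 26 and 17 cells carried at least 2 markers of the dendritic list, and 10, 2, 10 and 6 carried at least 3 of the macrophage list.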
